A study of Mus musculus with 34 samples.

Results

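The heat shock proteins and their J-domain partners were taken as the genes of the expression table whose symbol starts with Hsp and a number, with Hsp, a letter from a to h and a number, with Hsp90, or with Dnaja, Dnajb or Dnajc and a number. The rule took 66 of the 16389 genes, and all 66 passed the filter on low values, an FPKM (fragments scaled to gene length and sequencing depth) of at least 1 in at least 3 of the 34 libraries. Hspg2 is perlecan, a proteoglycan of basement membranes, which shares only the letters of its symbol with the others. The study sequenced RNA from the cortex, the hippocampus and the thalamus of mice in 3 groups, to describe brains in which bone marrow-derived cells had taken the place of microglia for a long time. All mice were male C57BL/6. WT CON mice had no irradiation, no transplant and no inhibitor. GFP-BM CON mice were irradiated over the whole body with 1000 cGy at 4 months of age and received bone marrow from CAG-EGFP mice, whose cells carry a green fluorescent protein under the broadly active CAG promoter. GFP-BM REPOP mice had the same irradiation and transplant and then, 3.5 months later, 600 ppm of PLX3397 in the chow for 14 days, followed by 6 months of recovery. PLX3397 inhibits the colony-stimulating factor 1 receptor and depletes microglia. Irradiation and transplant always came together, so their effects cannot be told apart. The thalamus was dissected together with the striatum. WT CON gave 3 cortex, 4 hippocampus and 4 thalamus libraries, GFP-BM CON gave 4, 4 and 3, and GFP-BM REPOP gave 4 of each, from 4 animals per treatment.

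Molecular chaperones hold, fold and refold other proteins. HSP70 proteins bind and release unfolded stretches with the energy of ATP, J-domain proteins (the Dnaj genes) deliver clients to them, HSP110 proteins exchange the nucleotide, HSP90 proteins take over clients near their final shape, and small heat shock proteins hold unfolded proteins without ATP. Some members, such as Hspa1a, Hspa1b and Dnajb1, are transcribed strongly by heat shock factor 1 after heat or protein damage, while others, such as Hspa8 and Hsp90ab1, are made at high levels in resting cells, neurons among them. Some members in the endoplasmic reticulum, such as Hspa5 and Hsp90b1, answer to the unfolded protein response, through another promoter element. On this basis the members were set in classes: 9 inducible cytosolic members, 8 constitutive cytosolic members of the HSP70, HSP110 and HSP90 families, 14 of the endoplasmic reticulum, 10 of mitochondria, 5 other small heat shock proteins, 7 synaptic, endosomal or neuronal J-domain proteins, 6 nuclear or ribosomal and 5 other cytosolic J-domain proteins. The 5 other small heat shock proteins were classed by their Hspb symbols alone, Hspb11 among them. Hspg2 was kept apart, and Dnajb3 was in no class.

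The promoters that hold a known stress element are shown so that the levels of their genes can be read beside them. RefSeq promoter windows of 300 bases (250 before and 50 after the start site, GRCm38.p6) were found for 54 of the 66 genes, and there was no entry for Dnajc11, Dnajc12, Dnajc18, Dnajc2, Dnajc30, Dnajc5, Hsp90aa1, Hsp90ab1, Hspa13, Hspa8, Hspa9 and Hspb2. The heat shock element was searched on both strands as GAA, 2 bases of any kind, TTC, 2 of any kind and GAA, or as TTC, 2 of any kind, GAA, 2 of any kind and TTC, which overlap where the repeat is longer, and was found in 4 of 54 genes (7.4%), against 0.66% of the 27025 genes with a window. The 4 were Hspd1 and Hspe1, the mitochondrial HSP60 and its co-chaperonin, which lie head to head with windows that share 285 bases, Dnajb6, a J-domain protein that keeps proteins from aggregating, and Hsph1, an HSP110. The endoplasmic reticulum stress element was searched on both strands as CCAAT, 9 bases of any kind and CCACG, and was found in 3 of 54 (5.6%), against 0.14% of genes. These were Hspa5 (BiP, the HSP70 of the endoplasmic reticulum), Hsp90b1 (GRP94, the HSP90 of that compartment) and Dnajc3 (p58IPK, a J-domain protein there). The windows of Hspa1a, Hspa1b and Dnajb1 held neither pattern, which says only that these letters are not in them. The windows of Hspe1 (chr1:55087898-55088197, plus strand), Hspa5 (chr2:34771840-34772139, plus strand), Hsp90b1 (chr10:86705395-86705694, minus strand) and Dnajc3 (chr14:118937682-118937981, plus strand) are written 5′ to 3′ with the matches in capitals, and of Hsph1 and Dnajb6 only the matched letters are given. In Hspe1 the capitals are 2 overlapping matches, and Hsp90b1 has 2 matches, one on each strand.
Hspe1: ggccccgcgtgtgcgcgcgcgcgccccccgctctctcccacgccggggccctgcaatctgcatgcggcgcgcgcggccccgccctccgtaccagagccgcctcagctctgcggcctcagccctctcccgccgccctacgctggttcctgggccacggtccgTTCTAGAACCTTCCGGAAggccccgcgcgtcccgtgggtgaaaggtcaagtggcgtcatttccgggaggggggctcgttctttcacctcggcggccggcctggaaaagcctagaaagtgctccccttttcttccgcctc
Hspa5: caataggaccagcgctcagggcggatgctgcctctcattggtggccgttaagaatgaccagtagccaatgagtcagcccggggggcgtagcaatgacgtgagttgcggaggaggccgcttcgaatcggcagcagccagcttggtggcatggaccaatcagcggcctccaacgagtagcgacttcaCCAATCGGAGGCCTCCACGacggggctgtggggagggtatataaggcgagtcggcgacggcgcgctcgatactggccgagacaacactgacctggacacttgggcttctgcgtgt
Hsp90b1: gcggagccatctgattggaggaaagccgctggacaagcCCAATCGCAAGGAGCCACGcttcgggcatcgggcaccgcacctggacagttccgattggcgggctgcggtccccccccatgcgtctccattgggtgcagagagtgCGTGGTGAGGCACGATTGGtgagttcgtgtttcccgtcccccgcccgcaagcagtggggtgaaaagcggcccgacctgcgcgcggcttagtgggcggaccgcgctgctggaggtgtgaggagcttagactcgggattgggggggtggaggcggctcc
Dnajc3: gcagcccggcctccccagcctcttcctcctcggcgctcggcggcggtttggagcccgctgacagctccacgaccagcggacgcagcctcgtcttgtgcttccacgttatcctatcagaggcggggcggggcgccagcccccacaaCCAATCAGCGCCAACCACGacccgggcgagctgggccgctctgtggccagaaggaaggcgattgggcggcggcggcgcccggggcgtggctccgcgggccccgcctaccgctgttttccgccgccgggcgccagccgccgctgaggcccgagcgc
Hsph1: TTCTGGAAAGTTC
Dnajb6: GAATCTTCCGGAA

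The libraries held 17085018 to 26010509 reads, recovered from the steps between FPKM values. Cortex markers summed to 85.1 to 99.7 FPKM in the cortex and to at most 72.2 elsewhere, and thalamus markers to 61.2 to 154 in the thalamus and at most 75.5 elsewhere. The 4 hippocampus markers summed to 28.2 to 103 in the hippocampus, 32.3 to 52.0 in the cortex and 31.1 to 65.6 in the thalamus, so they did not set the hippocampus apart. In the hippocampus, the median sum of striatum markers was 291.2 in WT CON, 76.3 in GFP-BM CON and 89.35 in GFP-BM REPOP. It ran from 42.5 to 325 in WT CON and 67.5 to 120 in GFP-BM CON, and reached 944 in GFP-BM REPOP replicate 4. The median for choroid plexus markers was 417.4, 2995 and 214.5. They reached 6450 in WT CON replicate 1 and 6312 in GFP-BM CON, and at most 286 in GFP-BM REPOP. The part of these tissues in the hippocampus differences between treatments was not tested. Libraries also differed in how strongly GC-rich genes were represented. As a GC measure, the 1388 genes of lowest GC content were set against the 1388 of highest, by the median log2 level of the GC-rich genes minus that of the GC-poor. It was 1.75 to 3.39 in WT CON hippocampus and 1.09 to 3.65 in WT CON thalamus, against 0.453 to 0.827 in GFP-BM CON thalamus, 0.506 to 0.938 in GFP-BM REPOP thalamus and 0.411 to 1.24 over all cortex libraries. In the hippocampus it was 0.713 to 2.08 in GFP-BM CON mice and 1.46 to 2.60 in GFP-BM REPOP mice.

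The levels of the members spanned 3 orders of magnitude per length of gene, with the constitutive chaperones of the cytosol at the top. Hsp90ab1, the constitutive HSP90, had a median FPKM of 632 over the 34 libraries (545 to 862), and Hspa8, the constitutive HSP70, had 521 (464 to 811). Hsp90aa1, the inducible HSP90, had 171, with a far wider range of 14.7 to 217. These 3 made up 43.6% to 53.9% of the summed FPKM of the members in each library. Among members of organelles, Hsp90b1 had 96.1, Hspa5 82.3, Hspa9 (the mitochondrial HSP70) 74.3, Hspe1 61.8 and Hspd1 54.0. The lowest was Dnajb13, a J-domain protein of cilia and sperm, at 0.593. In every library 58 members were at 1 or above, and 8 were below 1 in some.

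The members also differed in how steady they were over libraries. The highest library over the lowest had a median of 2.41 over the members, was under 2 for 29 of them and was 4 or more for 18. It was 1.28 for Hspa9, 1.36 for Hspa14 (a ribosome-bound HSP70), 1.58 for Hsp90ab1 and 1.59 for Hsph1, against 7.44 for Hspa4l, an HSP110 related to Hsph1. It was 14.7 for Hsp90aa1, 25.7 for Dnajc21, a factor of ribosome assembly, 27.3 for Hspb3, a small heat shock protein of muscle, and 124 for Dnajb13. The last 2 rest on few reads, with 2 and 1 in their lowest library, whereas the lowest library of Dnajc21 had 38. Of the genes whose windows hold the endoplasmic reticulum stress element, Hspa5 varied 1.64-fold, Hsp90b1 7.77-fold and Dnajc3 6.11-fold. Their gene models have GC contents of 45.6%, 42.1% and 43.2%, below the members' median of 47.5%.

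**Figure D1:**
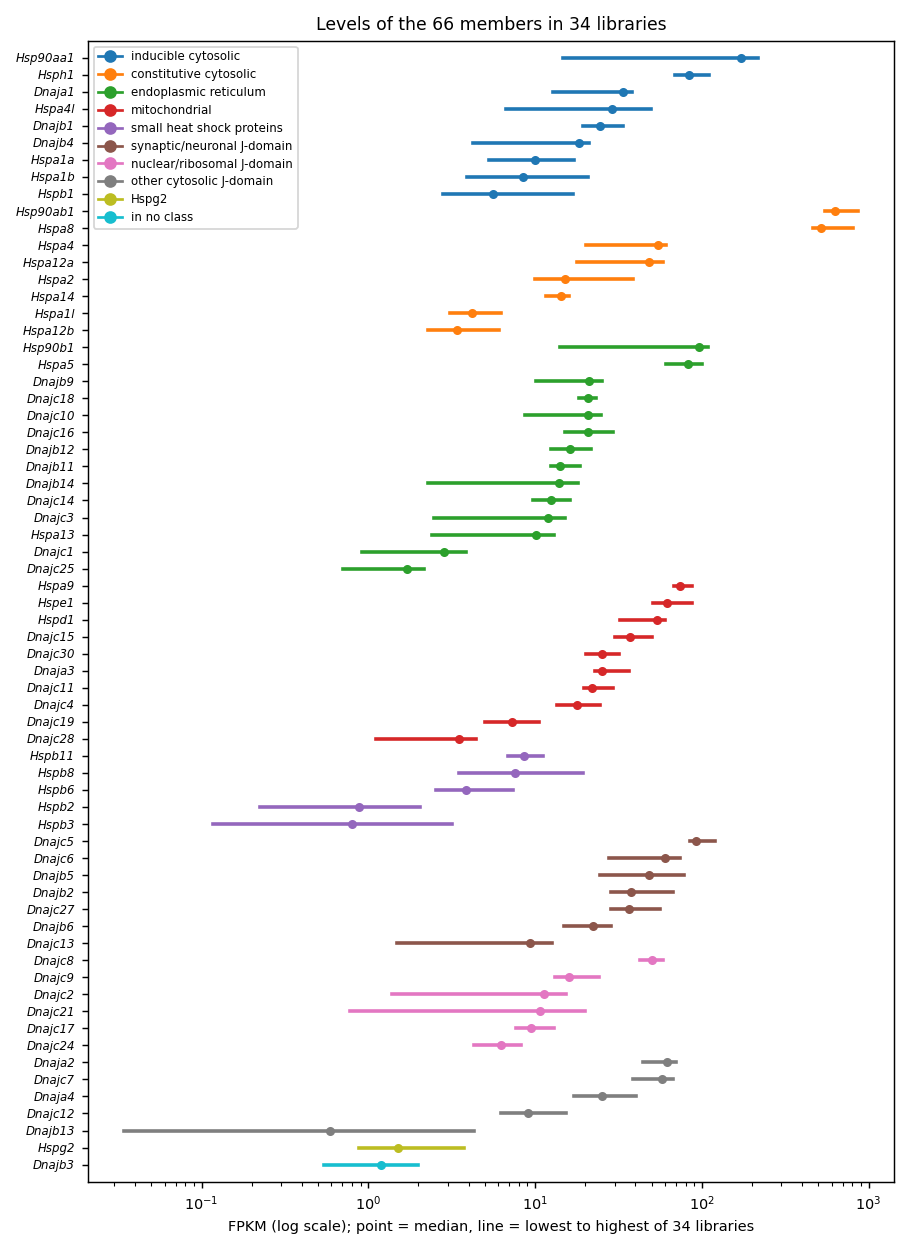
FPKM of the 66 members on a logarithmic axis, ordered by median within each class, with a point at the median and a line from the lowest to the highest of the 34 libraries. Hsp90ab1 and Hspa8 are high with short lines, and Hsp90aa1 has a line from 14.7 to 217.

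Hsp90aa1 and Hsph1 were the most abundant inducible members, and no inducible member passed the test between treatments in any region (the counts are given below with those of all genes). Hspa1a (chr17:34969359-34972156) and Hspa1b (chr17:34956429-34959238) are the inducible HSP70 pair. They share sequence, since 38.1% of the 150-base stretches of Hspa1a occur in Hspa1b and 40.5% the other way, so their reads may be split and each value is uncertain. In the hippocampus, Hspa1a stood at 13.6, 9.95, 11.6 and 17.2 in WT CON, at 10.6, 11.4, 10.1 and 10.7 in GFP-BM CON and at 12.7, 10.9, 12.7 and 7.94 in GFP-BM REPOP. The groups overlapped, with the highest value in WT CON replicate 4, which also had the highest Hspa1b of all libraries, 20.7. GFP-BM CON differed from WT CON by -0.26 ± 0.18 (log2 scale, SE; adjusted p = 0.407, limma) and GFP-BM REPOP by -0.24 ± 0.18 (adjusted p = 0.642). All differences are of log2(FPKM + 0.1). In bulk tissue, fewer cells of a type and less RNA per cell cannot be told apart.

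In the thalamus, Hspa1a stood at 7.49, 13.3, 8.74 and 7.89 in WT CON, at 5.28, 6.59 and 7.29 in GFP-BM CON and at 5.79, 6.49, 6.89 and 7.82 in GFP-BM REPOP. Every GFP-BM CON library was below every WT CON library, GFP-BM REPOP overlapped with WT CON, and WT CON replicate 2 was the highest. The difference from WT CON was -0.52 ± 0.20 in GFP-BM CON (adjusted p = 0.207) and -0.44 ± 0.19 in GFP-BM REPOP (adjusted p = 0.189). WT CON replicate 2 was also the library with the highest GC measure, 3.65, and Hspa1a has a GC content of 58.9%. With each library corrected for the GC content and length of its genes, the differences were -0.25 ± 0.13 and -0.19 ± 0.12. For Hspa1b the differences were -0.50 ± 0.29 and -0.34 ± 0.27 (adjusted p = 0.299 and 0.377). In the cortex the 11 values of Hspa1a lay between 7.35 and 11.6, and GFP-BM REPOP differed from GFP-BM CON by 0.23 ± 0.11 (adjusted p = 1.0).

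Dnajb1 (chr8:83608175-83612653), the J-domain partner of the inducible HSP70, varied 1.73-fold over all libraries. In the hippocampus it stood at 28.9, 23.4, 22.2 and 25.7 in WT CON, at 23.3, 19.4, 21.4 and 24.3 in GFP-BM CON and at 31.8, 28.5, 25.6 and 23.2 in GFP-BM REPOP. The highest library was of GFP-BM REPOP and the lowest of GFP-BM CON, and all groups overlapped. GFP-BM REPOP differed from GFP-BM CON by 0.30 ± 0.12 (adjusted p = 0.398). In the thalamus WT CON replicate 2 had 33.6, the highest Dnajb1 of all libraries, and GFP-BM REPOP differed from WT CON by -0.29 ± 0.12 (adjusted p = 0.185), or by -0.10 ± 0.08 with the GC content and length correction.

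Hsph1, the inducible HSP110, was the steadiest inducible member, at 69.5 to 110.2 FPKM. Its largest treatment difference was -0.08 ± 0.05, in GFP-BM REPOP against WT CON cortex. Hspb1, HSP27, a small heat shock protein also abundant in vessel walls, stood at 8.44, 16.9, 7.46 and 9.26 in WT CON thalamus, at 5.59, 5.82 and 6.66 in GFP-BM CON and at 7.89, 5.88, 5.44 and 7.97 in GFP-BM REPOP. WT CON was higher than GFP-BM CON without overlap and overlapped with GFP-BM REPOP, with differences of -0.72 ± 0.26 (adjusted p = 0.185) and -0.57 ± 0.24 (adjusted p = 0.183). Summed markers of smooth muscle and pericytes were 27.3 to 42.5 FPKM in WT CON thalamus, 26.7 to 27.4 in GFP-BM CON and 26.8 to 38.2 in GFP-BM REPOP, and their part in the result was not tested. Dnaja1, a J-domain partner of Hspa8 and the inducible HSP70, stood at 33.1 to 35.6 in all 7 transplanted thalamus libraries, above the 12.8 to 32.3 of WT CON, at 0.47 ± 0.27 and 0.47 ± 0.25 (adjusted p = 0.292 and 0.235), and the correction turned these to -0.48 ± 0.13 and -0.45 ± 0.12.

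**Figure D2:**
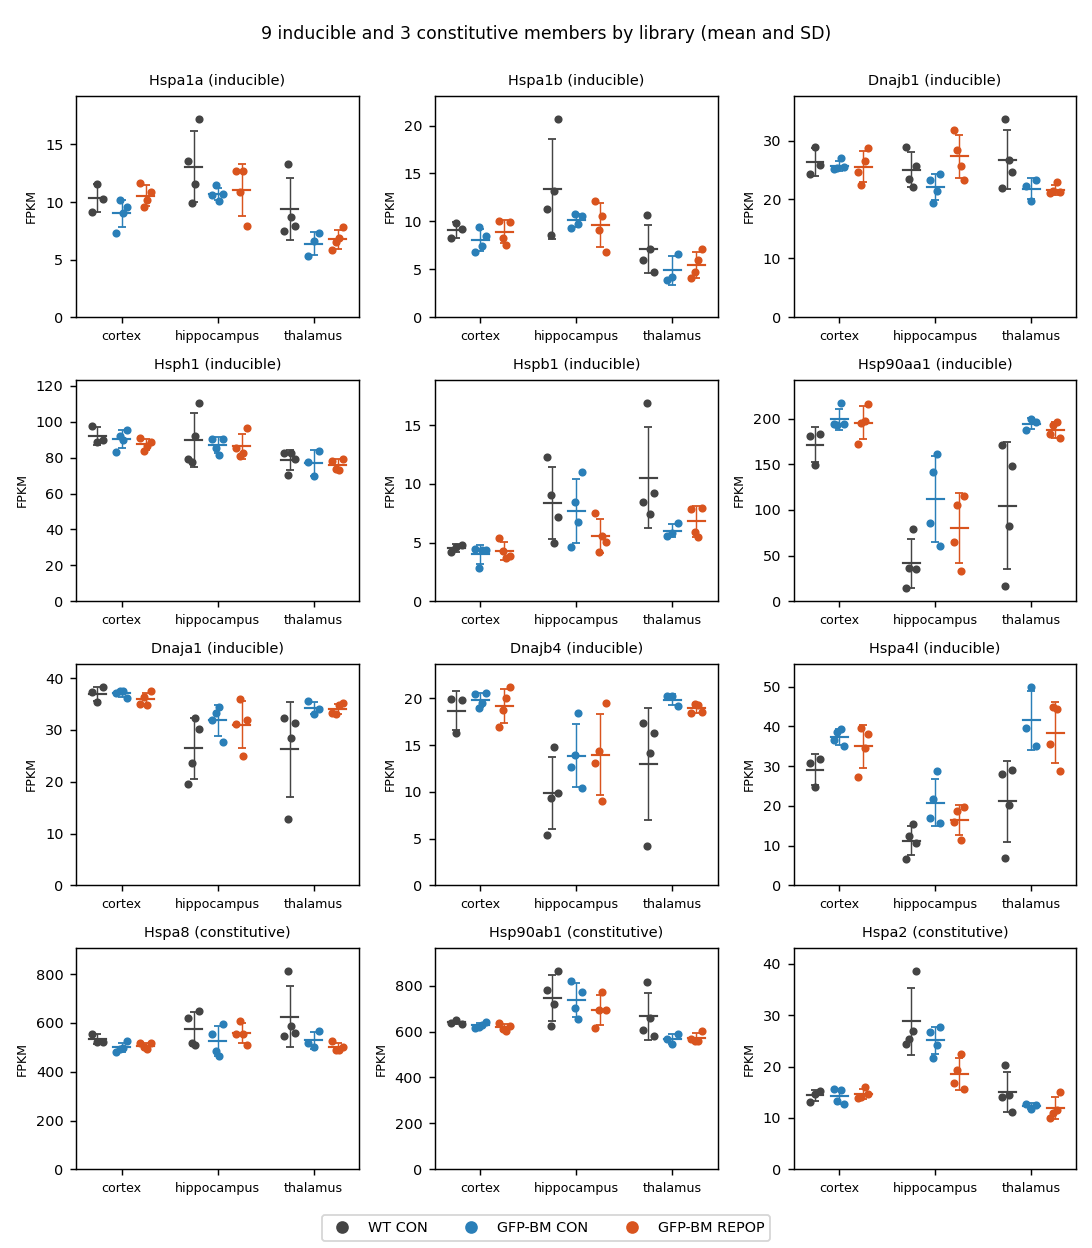
FPKM by library of the 9 inducible members and of Hspa8, Hsp90ab1 and Hspa2, by region and treatment, with bars for the mean and SD and a vertical axis from 0 in each panel. Treatments overlap in most panels, and Hspa1a and Hspa1b peak in WT CON hippocampus (17.2 and 20.7).

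No member passed the threshold (limma-trend, Benjamini-Hochberg adjusted p under 0.05 over 14710 genes) in any of the 9 treatment comparisons, and voom on the recovered reads also called 0. In GFP-BM CON against WT CON, the members with an unadjusted p under 0.05 numbered 13 (cortex), 15 (hippocampus) and 8 (thalamus). That is 19.7%, 22.7% and 12.1% of the members, against 16.0%, 23.9% and 20.7% of all genes, of which 0.32%, 0.0% and 0.0% passed the adjusted threshold. In GFP-BM REPOP against WT CON the numbers were 6, 4 and 18 (9.09%, 6.06% and 27.3%), against 14.3%, 9.67% and 25.0% of all genes, with 0.734%, 0.0136% and 0.836% past the adjusted threshold. In GFP-BM REPOP against GFP-BM CON they were 4, 7 and 1 (6.06%, 10.6% and 1.52%), against 4.27%, 11.7% and 0.945%, with 0.0476%, 0.0272% and 0.0% past the adjusted threshold. The shares of members were above those of all genes in 4 of the 9 comparisons and below them in 5, with the widest gap in GFP-BM CON thalamus (12.1% against 20.7%). Both comparisons with WT CON in a region share its WT CON libraries. Some single members are described as not overlapping between groups. In GFP-BM CON against WT CON this held for 16.0% (cortex), 13.7% (hippocampus) and 23.1% (thalamus) of all genes. In GFP-BM REPOP it held for 9.48%, 4.0% and 18.8% against WT CON, and for 3.09%, 6.88% and 4.56% against GFP-BM CON.

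The members behind the small counts, named after their values were seen, were Hspa2, Dnajc21, Dnajb12 and Dnajb9 for GFP-BM REPOP against WT CON in the hippocampus, and Dnajc30, Hspb6, Dnajb5 and Hspa1a in the cortex of GFP-BM REPOP against GFP-BM CON. The 1 in the thalamus of the last comparison was Hspb3, at 0.748, 0.528 and 0.592 in GFP-BM CON and 0.285, 0.422, 0.380 and 0.117 in GFP-BM REPOP. The groups did not overlap, and the difference was -0.92 ± 0.33 (adjusted p = 1.0). The WT CON libraries, at 0.751, 0.492, 0.403 and 0.530, overlapped with both. The smallest adjusted p of any member was 0.0738, for Dnajc21 in GFP-BM CON against WT CON hippocampus. A fit of all 9 groups, which shares one estimate of the spread between regions, called 12 members in GFP-BM CON against WT CON hippocampus and 3 in the thalamus, and 1 and 5 in GFP-BM REPOP against WT CON in those regions, Hspa4l and Dnajc21 among them in 3 of the 4. That is 18.2%, 4.55%, 1.52% and 7.58% of the members, against 19.4%, 9.16%, 2.79% and 13.3% of all genes in the same fit. It also called 1 member, Dnajc9, in GFP-BM REPOP against GFP-BM CON hippocampus, where 4.52% of all genes passed.

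The median differences by class were read without the GC content and length correction. In GFP-BM CON against WT CON thalamus, the median of the endoplasmic reticulum members was 0.34 (9 of 14 above 0), that of the mitochondrial members -0.11 (3 of 10 above 0) and that of the constitutive cytosolic members -0.20 (3 of 8 above 0), where all genes had a median of -0.06. In the same comparison the 33 members of lower GC content had a median of 0.29 and the 33 of higher GC content -0.19. The part of GC content in the class medians was not tested. In GFP-BM REPOP against GFP-BM CON thalamus the medians of these 3 classes lay between -0.03 and 0.00. The class of small heat shock proteins had -0.41 in GFP-BM REPOP against WT CON thalamus, with differences from -0.73 to 0.07. Of its 5 members 1 was above 0, Hspb11, which was placed there by its symbol. Hspb2 and Hspb3 in this class had 4 and 2 reads in their lowest library.

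**Figure D3:**
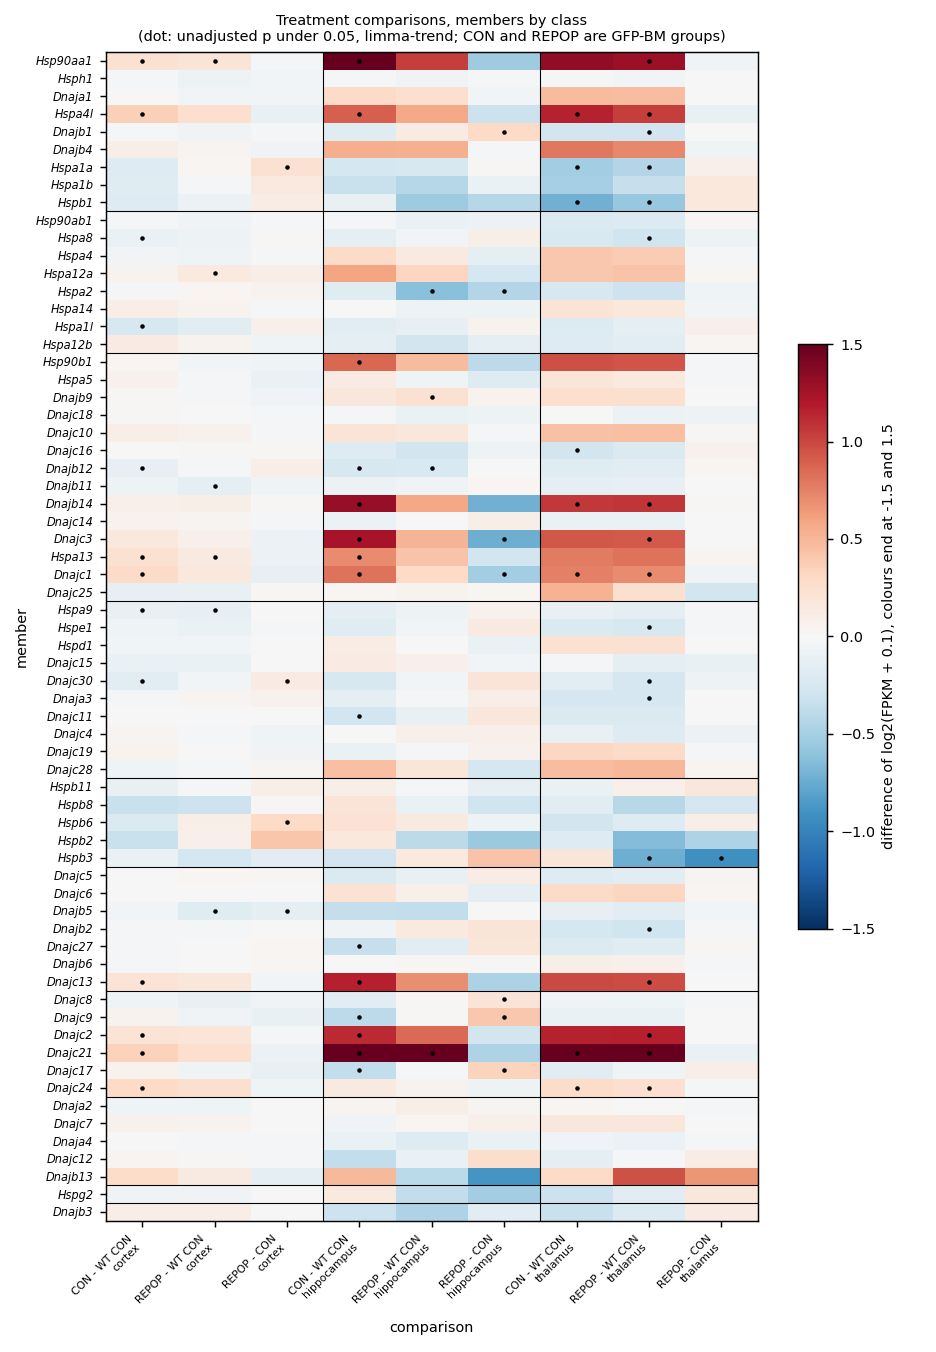
Colour map of the difference of log2(FPKM + 0.1) for each member (rows, by class) in the 9 treatment comparisons (columns, by region), with dots at an unadjusted p under 0.05. Strong colours lie in the hippocampus and thalamus columns against WT CON, where the differences reach 2.01 (Dnajc21), and the columns of the cortex are pale.

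The largest differences from WT CON in the hippocampus and thalamus belonged to members of low GC content and moved with the GC measure of the library. Hsp90aa1 (chr12:110691036-110696395, GC content 43.7%) stood at 14.7, 36.5, 79.4 and 34.9 in WT CON hippocampus, at 85.3, 141, 161 and 59.9 in GFP-BM CON and at 64.6, 106, 33.2 and 116 in GFP-BM REPOP. The groups overlapped, with the lowest value in WT CON replicate 1. In the thalamus it stood at 171, 16.8, 82.4 and 148 in WT CON and between 178 and 199 in all 7 transplanted libraries, so that every transplanted library was above every WT CON library. In the hippocampus GFP-BM CON differed from WT CON by 1.57 ± 0.51 (95% interval 0.45 to 2.69, adjusted p = 0.109) and GFP-BM REPOP by 1.03 ± 0.51 (adjusted p = 0.53). For the thalamus these were 1.33 ± 0.62 and 1.28 ± 0.58 (adjusted p = 0.249 and 0.199). The GC measure of the WT CON libraries, in the same order, was 3.39, 2.62, 1.75 and 2.52 in the hippocampus and 1.09, 3.65, 2.17 and 1.42 in the thalamus, and in both regions the library with the highest measure had the lowest Hsp90aa1. With the GC content and length correction the GFP-BM CON differences were 1.21 ± 0.41 (adjusted p = 0.113) and 0.90 ± 0.45 (adjusted p = 0.28). How much of the difference comes with the GC measure was not tested further.

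Dnajc21 (GC content 42.1%) had the largest differences. It stood at 0.777, 0.947, 3.26 and 2.14 in WT CON hippocampus, at 5.63, 8.85, 12.3 and 2.75 in GFP-BM CON and at 6.46, 6.81, 2.49 and 4.12 in GFP-BM REPOP. WT CON was low and overlapped with both, and the differences from it were 2.01 ± 0.52 (adjusted p = 0.0738) and 1.54 ± 0.52 (adjusted p = 0.428). All transplanted thalamus libraries (9.41 to 13.5) were above those of WT CON (1.10 to 7.66), by 1.71 ± 0.53 (adjusted p = 0.143) and 1.61 ± 0.49 (adjusted p = 0.11). With the correction the 4 differences were 1.49, 1.24, 1.08 and 1.01, of the same sign and also not past the threshold.

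Hspa4l (GC content 39.5%) did not keep its sign. It stood at 6.70, 12.3, 15.5 and 10.6 in WT CON hippocampus and at 17.0, 21.8, 28.7 and 15.7 in GFP-BM CON, without overlap, at 0.90 ± 0.27 (adjusted p = 0.0881), and the correction gave -0.30 ± 0.13 (adjusted p = 0.212). In the thalamus 1.16 ± 0.43 (adjusted p = 0.194) became -0.23 ± 0.14 (adjusted p = 0.337). Dnajb14, a J-domain protein of the endoplasmic reticulum membrane, differed by 1.31 ± 0.36 in GFP-BM CON hippocampus (adjusted p = 0.0809) and Dnajc3 by 1.24 ± 0.33 (adjusted p = 0.0751), and the corrected values were 0.39 ± 0.13 and 0.67 ± 0.21.

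Over the 66 members, the GFP-BM CON difference from WT CON was lower at higher GC content. Pearson r was -0.707 for the thalamus and -0.505 for the hippocampus, and -0.637 and -0.541 over 13875 genes. The GFP-BM REPOP difference from WT CON in the thalamus had -0.675 and -0.626. These describe genes measured in the same libraries. Of the 33 members of lower GC content, 15 had their lowest level in WT CON thalamus replicate 2 and 5 in WT CON hippocampus replicate 1. Of the 33 of higher GC content, 12 had their highest level in WT CON hippocampus replicate 4 and 9 in WT CON thalamus replicate 2. The 2 libraries with the highest GC measure also had the lowest summed neuron markers, 407 FPKM in WT CON hippocampus replicate 1 and 398 in WT CON thalamus replicate 2, against 674 to 1145 and 846 to 1060 in the other libraries of their groups, and the part of this in the result was not tested.

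**Figure D4:**
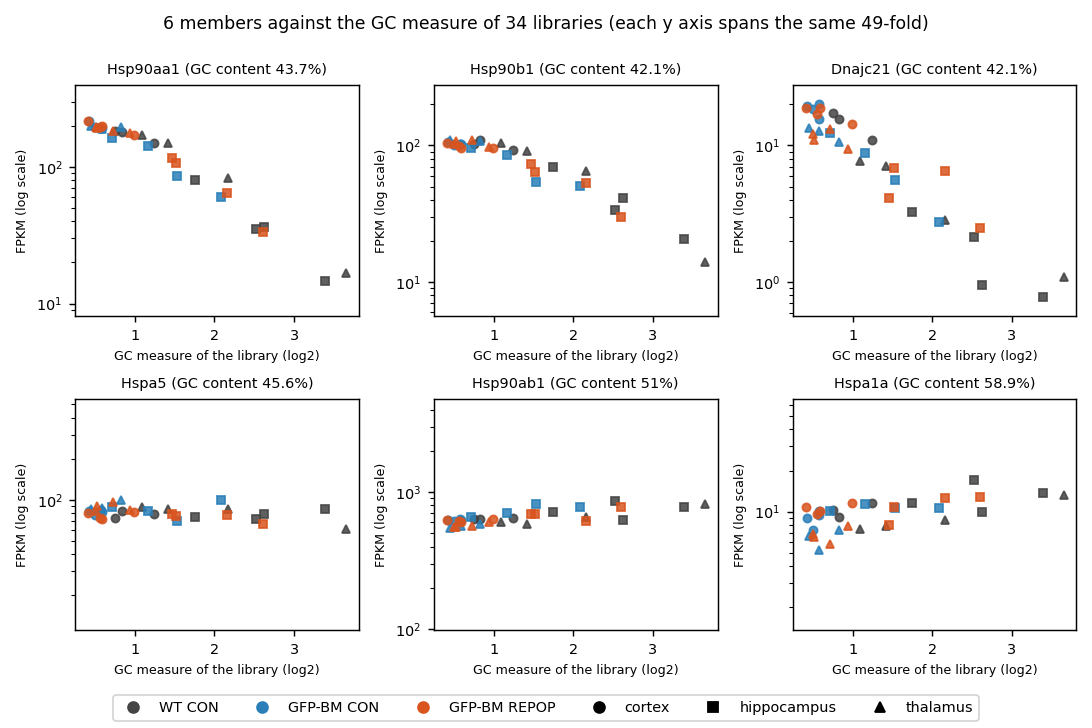
FPKM of Hsp90aa1, Hsp90b1, Dnajc21, Hspa5, Hsp90ab1 and Hspa1a on logarithmic axes of equal span against the GC measure of the 34 libraries, with colours for treatment and symbols for region. Hsp90aa1, Hsp90b1 and Dnajc21 are lower in libraries with a high measure, down to an Hsp90aa1 of 14.7 and 16.8, while Hspa5 and Hsp90ab1 stay within 1.64-fold and 1.58-fold.

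The differences of the constitutive members between treatments ran from -0.62 (Hspa2) to 0.59 (Hspa12a), and none passed. Hsp90ab1 (chr17:45567778-45573261) differed from WT CON by -0.22 ± 0.11 in GFP-BM CON thalamus (adjusted p = 0.269), its largest difference in size. Hspa8 (chr9:40801276-40805202) stood at 546, 811, 587 and 559 in WT CON thalamus, at 518, 499.9 and 568 in GFP-BM CON and at 525, 491, 489 and 502 in GFP-BM REPOP. GFP-BM REPOP lay below WT CON without overlap, at -0.30 ± 0.12 (adjusted p = 0.178), and at -0.49 ± 0.19 with the correction (adjusted p = 0.155). Hspa12a, a distant HSP70 relative of neurons, was 46.6, 50.9 and 48.5 in WT CON cortex and 53.1, 56.3, 53.7 and 53.1 in GFP-BM REPOP, higher without overlap, at 0.15 ± 0.06 (adjusted p = 0.308). Its differences from WT CON were larger in the hippocampus, at 0.59 ± 0.32 in GFP-BM CON (adjusted p = 0.286) and 0.32 ± 0.32 in GFP-BM REPOP (adjusted p = 0.715), and in the thalamus, at 0.41 ± 0.21 and 0.43 ± 0.20 (adjusted p = 0.275 and 0.201), with overlapping values in both regions. Hspa4 (an HSP110), Hspa14, Hspa12b (an HSP70 relative of endothelium) and Hspa1l (an HSP70 next to Hspa1a) had no adjusted p below 0.22 between treatments.

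Hspa2 (chr12:76403812-76406938), an HSP70 known from the testis, had the smallest unadjusted p of the class (0.00205), for GFP-BM REPOP hippocampus. It stood there at 24.5, 25.4, 27.0 and 38.5 in WT CON, at 26.7, 21.8, 24.3 and 27.7 in GFP-BM CON and at 16.9, 19.3, 22.5 and 15.6 in GFP-BM REPOP. Every GFP-BM REPOP library was below every WT CON library and 1 of them, replicate 3, was above the lowest GFP-BM CON library. The difference was -0.62 ± 0.16 from WT CON (95% interval -0.97 to -0.28, adjusted p = 0.279) and -0.44 ± 0.16 from GFP-BM CON (adjusted p = 0.337). The correction gave -0.50 ± 0.17 and -0.52 ± 0.17, and the fit of all 9 groups called the first (adjusted p = 0.0233). Cortex markers summed to 40.9 to 72.2 FPKM in GFP-BM REPOP hippocampus, against 25.7 to 33.7 in WT CON and 26.2 to 33.7 in GFP-BM CON hippocampus, and Hspa2 was lower in the cortex than in the hippocampus of WT CON (below). The part of tissue makeup in the result was not tested.

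Of the organelle chaperones, Hspa9 and Hspa5 differed little between treatments and Hsp90b1 differed more, and none passed. Hspa9 stood at 73.6, 79.8 and 75.1 in WT CON cortex, at 70.0, 68.1, 73.0 and 71.3 in GFP-BM CON and at 68.1, 70.6, 70.4 and 71.4 in GFP-BM REPOP. Both transplanted groups were below WT CON without overlap, by -0.11 ± 0.04 (adjusted p = 0.199) and -0.12 ± 0.04 (adjusted p = 0.233). The ratio of Hspe1 to Hspd1 FPKM, for genes that share their promoter region, ran from 0.93 to 2.58, with the highest ratio in WT CON thalamus replicate 2 and the next, 1.96, in WT CON hippocampus replicate 1, the 2 libraries with the highest GC measure. Hspa5 differed from WT CON by -0.07 to 0.19 in the 6 comparisons. Hsp90b1 stood at 103, 14.1, 65.0 and 91.6 in WT CON thalamus and at 97.5 to 109.5 in the transplanted libraries, overlapping, with differences of 0.97 ± 0.54 and 0.94 ± 0.50 (adjusted p = 0.292 and 0.237).

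In WT CON mice 36 of the 66 members passed the threshold in any comparison between regions. The share of all genes that passed in any of them was not counted, so the members can be set against all genes only within each comparison. Between hippocampus and cortex 24 passed, 8 higher and 16 lower in the hippocampus, where 36.9% of all genes passed (15.7% higher and 21.2% lower). Between thalamus and cortex 16 passed, 7 higher and 9 lower in the thalamus, where 30.0% of all genes passed (13.0% and 17.0%). Between thalamus and hippocampus 9 passed, 1 higher and 8 lower in the thalamus, where 17.7% passed (7.82% and 9.88%). The shares of members, 24, 16 and 9 of 66, are near or below those of all genes in this fit. The regions were compared in the fit of all 9 groups, where the animal entered as a random block (estimated correlation -0.038). With the GC content and length correction 31, 24 and 13 members passed, of which 15, 13 and 8 passed in both fits in the same direction. That is 47.0%, 36.4% and 19.7% of the members, against 36.7%, 30.0% and 25.4% of all genes with it. The shares of members were then above those of all genes in both comparisons with the cortex and below between thalamus and hippocampus. Members named below outside the rule for named genes were chosen after their values were seen.

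Hspa2 marked the hippocampus. It stood at 24.5 to 38.5 there, against 13.1, 14.8 and 15.3 in the cortex and 14.0, 20.4, 14.5 and 11.2 in the thalamus, without overlap. The hippocampus was higher than the cortex by 0.97 ± 0.17 (adjusted p = 0.000148), and the thalamus was lower than the hippocampus by -0.95 ± 0.15 (adjusted p = 0.000157). Leaving out each of the 34 libraries gave 0.83 to 1.05 and -1.10 to -0.80, and no call was lost.

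Dnajb5, a neuronal J-domain protein, was lowest in the thalamus. It stood at 25.6 to 40.9 in the 4 libraries there, at 49.9, 54.5 and 56.2 in the cortex and at 58.4, 75.6, 67.9 and 78.7 in the hippocampus. The 3 regions did not overlap. The hippocampus was not called against the cortex (0.38 ± 0.16, adjusted p = 0.0646), and the thalamus was lower than the cortex by -0.74 ± 0.16 (adjusted p = 0.00192) and than the hippocampus by -1.11 ± 0.15 (adjusted p = 2.22e-05). In the synaptic, endosomal and neuronal class 5 of 7 passed between thalamus and cortex, where 30.0% of all genes passed. Dnajb2 (0.51 ± 0.15) and Dnajc27 (0.41 ± 0.11) were higher, and Dnajb5, Dnajb6 (-0.37 ± 0.12) and Dnajc6 (-0.55 ± 0.19) were lower. The Dnajc6 call was lost without any of 4 libraries (the 3 WT CON cortex libraries and thalamus replicate 2), where the difference ran from -0.66 to -0.30 over all fits without 1 library, the Dnajb6 call without any of 3 and the Dnajb2 call without either of 2, WT CON cortex replicate 3 and thalamus replicate 2. Dnajc6 is auxilin, which works with Hspa8 in uncoating vesicles.

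Of the inducible members, Hsp90aa1 was lower in the hippocampus than in the cortex, where it stood at 181, 149 and 183, by -2.28 ± 0.54 (adjusted p = 0.00212), and by -1.77 ± 0.41 with the correction. Hspb1 was higher in the thalamus than in the cortex (4.17, 4.62 and 4.82) by 1.13 ± 0.29 (adjusted p = 0.00594). It was also higher in the hippocampus (0.80 ± 0.29, adjusted p = 0.0297), a call lost with the correction and without any of 5 libraries. Hspa1b and Hspa1a were lower in the thalamus than in the hippocampus, by -0.89 ± 0.24 (adjusted p = 0.00948) and -0.49 ± 0.17 (adjusted p = 0.0468), with overlapping values. The Hspa1b call was lost without WT CON hippocampus replicate 4 or thalamus replicate 4, and the Hspa1a call in 21 of 34 such fits. Dnajb4, a J-domain protein, Hspa4l and Dnaja1 were lower in the hippocampus than in the cortex, by -0.998 ± 0.33, -1.42 ± 0.33 and -0.51 ± 0.20. With the correction Dnajb4 came to -0.08, Hspa4l to 0.21 and Dnaja1 to 0.61, which passed the threshold in the opposite direction (adjusted p = 0.000892). Between thalamus and cortex Dnaja1 went from -0.58 to 0.19 and Dnaja2, another J-domain partner of HSP70, from -0.28 to 0.17. The hippocampus calls of Dnajb4 and Dnaja1 were lost in 3 and 22 of 34 fits without 1 library, and both thalamus calls in 4.

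In the endoplasmic reticulum class 6 of 14 passed between hippocampus and cortex, where 36.9% of all genes passed. Dnajb12 was higher, and Hsp90b1, Dnajb14, Dnajc3, Dnajc10 and Dnajc1 were lower. Hsp90b1 stood at 20.5, 41.4, 69.1 and 33.9 in the hippocampus and at 109.7, 92.8 and 102.5 in the cortex, at -1.43 ± 0.43 (adjusted p = 0.0109), and at -0.70 ± 0.26 with the correction. The Hsp90b1 call was lost without WT CON hippocampus replicate 1. That of Dnajc10 was lost without this library or without any WT CON cortex library. That of Dnajc1 was lost without this library or without WT CON cortex replicate 1, and that of Dnajb12 without any of 4 libraries. The Dnajc10 and Dnajb12 calls were also lost with the correction. Hspa5 was not called between regions, and with the correction it was higher in the hippocampus than in the cortex (0.27 ± 0.10, adjusted p = 0.0367). Among nuclear and ribosomal members Dnajc21 was below its cortex level in both other regions, by -3.16 ± 0.51 (hippocampus, adjusted p = 9.02e-05) and -1.95 ± 0.51 (thalamus, adjusted p = 0.0067), and with the correction by -2.45 and -1.47. Dnajc13, an endosomal J-domain protein, was lower in the hippocampus (-1.90 ± 0.42), as was Dnajc2, a ribosome-bound one (-1.61 ± 0.45).

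Hspe1 was higher than in the cortex in both other regions, by 0.32 ± 0.11 (adjusted p = 0.0302) and 0.34 ± 0.11 (adjusted p = 0.0264), each lost without any of 4 libraries, while Hspd1 was not called. Hspb3 stood at 2.24, 2.78 and 2.73 in the cortex and at 0.860, 1.80, 1.01 and 0.189 in the hippocampus, lower without overlap by -1.60 ± 0.51 (adjusted p = 0.0157), a call lost without WT CON hippocampus replicate 4. In the thalamus it was lower by -2.07 ± 0.51 (adjusted p = 0.00452). Hspb8, which works with a cochaperone in autophagy, was higher in the thalamus than in the cortex by 0.83 ± 0.32 (adjusted p = 0.0482), a call lost with the correction, with voom and in 25 of 34 fits without 1 library. Hspa12b was higher in the thalamus (0.69 ± 0.18, adjusted p = 0.00743) and Dnajc12 too (0.78 ± 0.17, adjusted p = 0.002), a partner of HSP70 in folding aromatic amino acid hydroxylases. Hspa1l was lower in both regions, by -0.35 ± 0.13 and -0.51 ± 0.13, and the hippocampus call was lost without any of 4 libraries (WT CON cortex replicates 1 and 3 and hippocampus replicates 1 and 2).

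**Figure D5:**
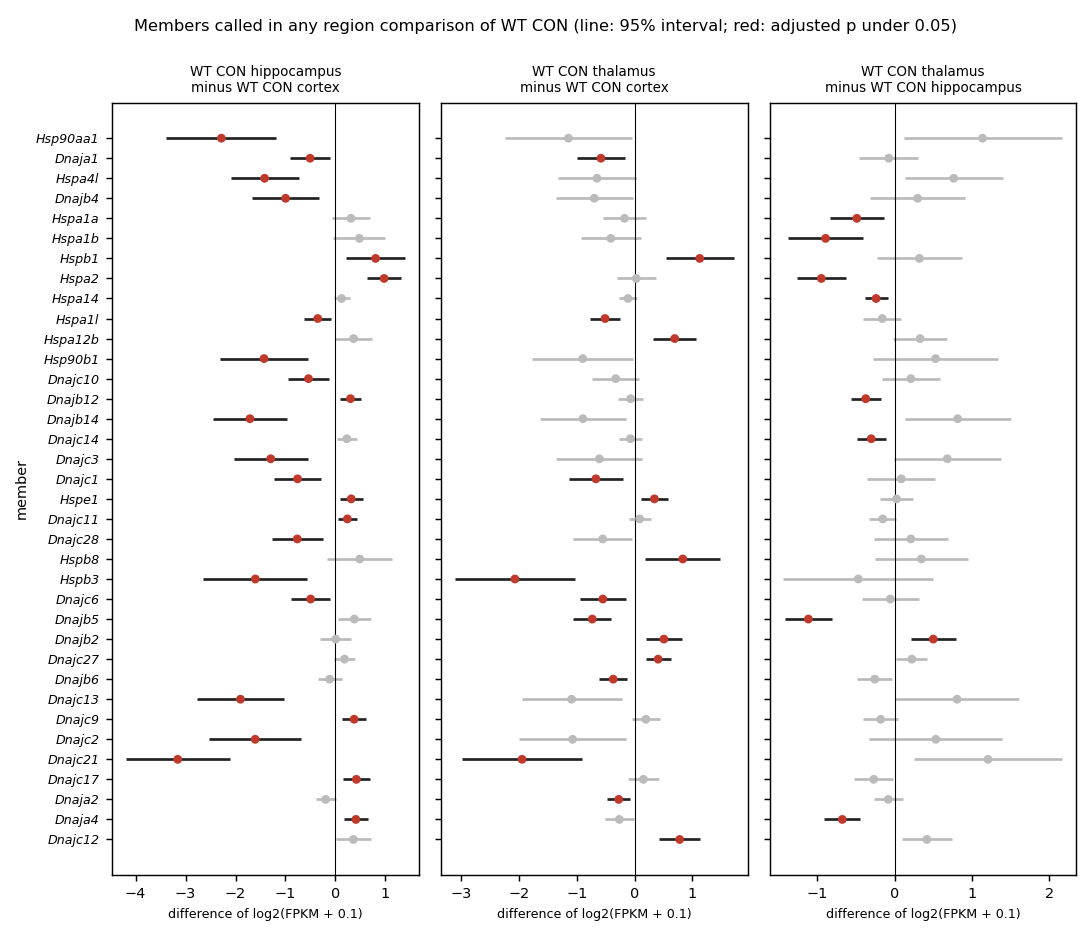
Differences of log2(FPKM + 0.1) between WT CON regions for the 36 members called in at least one comparison, with 95% intervals and calls in red. Dnajc21 lies farthest from 0 in the first panel (-3.16), and Hspa2 is higher in the hippocampus in the first panel and lower in the thalamus in the third.

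Whether treatment differences depended on the region was tested as the difference in the hippocampus or thalamus minus that in the cortex. No member passed in the 6 tests (limma, and 0 by voom). For GFP-BM CON against WT CON, 0.0% (hippocampus) and 0.0% (thalamus) of all genes passed, and 7 and 0 members had an unadjusted p under 0.05, against 10.1% and 3.45% of all genes. For GFP-BM REPOP against WT CON, 0.034% and 0.0% of all genes passed, and 1 and 1 members had such a p, against 5.79% and 5.25%. These were Hspa2 in the hippocampus (-0.65 ± 0.23, adjusted p = 0.58) and Dnaja3, a mitochondrial J-domain protein, in the thalamus (-0.29 ± 0.13, adjusted p = 0.595). For GFP-BM REPOP against GFP-BM CON, 0.177% and 0.0% passed, and 4 and 0 members had such a p, against 8.52% and 0.204%. The 4 were Dnajc8, Dnajc9, Dnajc17 and Hspa2, with the smallest adjusted p, 0.208, for Dnajc9 (0.51 ± 0.16).

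Partners of the chaperones were read in the same fits from 6 lists: 22 heat shock factors and cochaperones, the 8 subunits of the TRiC chaperonin, 16 genes of the unfolded protein response, 7 mitochondrial partners, 2 cold-inducible RNA-binding proteins and 10 immediate early genes. Hsf1, which drives the inducible genes, differed from WT CON by -0.29 ± 0.13 in GFP-BM CON hippocampus (adjusted p = 0.198) and by -0.32 ± 0.13 in GFP-BM REPOP hippocampus (adjusted p = 0.477), and passed in no treatment comparison. Over the alternatives the adjusted p of the first ran from 0.0419, in the fit of all 9 groups, to 0.682, and that of the second was 0.077 or more. With the GC content and length correction the differences were -0.09 ± 0.10 and -0.18 ± 0.10 (adjusted p = 0.682 and 0.558). Of the 22 genes of this list, 2 (cortex), 9 (hippocampus) and 10 (thalamus) had an unadjusted p under 0.05 in GFP-BM CON against WT CON (limma). The shares of all genes were 16.0%, 23.9% and 20.7%. In GFP-BM REPOP against WT CON 6, 3 and 10 had such a p, against 14.3%, 9.67% and 25.0% of all genes. These counts were not read with the correction.

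Of the 16 genes of the unfolded protein response, only Atf4, a transcription factor of the stress response, passed between treatments. It stood at 44.0, 51.1 and 48.0 in WT CON cortex, at 35.4, 31.0, 34.9 and 33.8 in GFP-BM CON and at 32.0, 34.8, 32.8 and 33.2 in GFP-BM REPOP. All transplanted libraries were below all WT CON libraries, with differences of -0.50 ± 0.06 (adjusted p = 0.0105) and -0.52 ± 0.06 (adjusted p = 0.0026). They came to -0.55 to -0.45 and -0.58 to -0.47 over 20 alternatives, and both calls were lost in the fit of all 9 groups and the first also with the replicate block. The median of the list was 0.00 and -0.04 in these comparisons. The 10 immediate early genes, which answer quickly to neuronal activity and stress, passed the adjusted threshold in no treatment comparison. In GFP-BM CON their median difference from WT CON was -0.70 (cortex), -0.90 (hippocampus) and -0.71 (thalamus), and 4, 9 and 7 of them had an unadjusted p under 0.05, against 16.0%, 23.9% and 20.7% of all genes. In GFP-BM REPOP the medians were -0.74, -0.33 and -0.46, and 5, 0 and 3 had such a p, against 14.3%, 9.67% and 25.0%. In WT CON all 10 passed as lower in the thalamus than in the cortex, with a median of -1.33, where 17.0% of all genes were called lower. The correction was not read for this comparison.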

How the data were processed

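RNA of 34 libraries was measured. The authors deposited 1 table of FPKM values, made per the methods and the submitters' processing notes with STAR, featureCounts, limma and edgeR on mm10. For 100.0% of entries the value gave a whole number of reads (tolerance 0.01). The labels gave each library its treatment, region and animal. The p-values measure the spread between libraries. With 1 library per animal in each region, spread between animals, dissections and library preparations cannot be told apart.

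Genes with an FPKM of at least 1 in at least 3 libraries were kept (15053), 343 of other biotypes were left out, and 14710 were tested. Differences of log2(FPKM + 0.1) were tested two-sided with limma 3.58.1 (R 4.3.3), trended prior, per region for the 9 treatment comparisons. Regions of WT CON and the 6 differences between regions were tested in 1 fit of 9 groups, with a random block for the animal. Benjamini-Hochberg adjustment ran over all genes tested. voom on the recovered reads called 0 members between treatments. The GC measure set 1388 genes with a GC content of 58.2% and more against 1388 with 41.5% and less, and the correction fitted splines of 5 degrees of freedom on GC content and length in each library. The fits and the recovery of reads were tested on simulated data. Promoter windows are those of RefSeq. Python 3.11.15, numpy 2.4.6, pandas 2.3.3, scipy 1.17.1 and matplotlib 3.10.9 were used.

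The members, classes and lists were chosen with earlier results of these data known. Named were the inducible and constitutive classes, Hspa5, Hsp90b1, Hspa9, Hspd1, Hspe1, Hspg2, members past the threshold between treatments, the 3 largest differences in each comparison, the 2 largest rises and falls between WT CON regions, Hsf1, and partners past the threshold between treatments. Not every difference picked by this rule is given. Those of Dnajb13 and Hspb2, with 1 and 4 reads in their lowest library, are left out. Alternatives were a pseudocount of 1 or 0.01, no filter, a filter on the mean FPKM of the region (1 or more), median-ratio scaling, voom, all 9 groups in 1 fit, a replicate block, no animal block, the GC content and length correction, and each library left out. A result for 1 partner gene is not reported here.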

Additional observations from a re-analysis of the deposited data

Results flagged for a closer look

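Over 34 named members and the 7 groups of 4 libraries, 238 sets of values were examined for a library far from the other 3 (by Dixon's ratio of the gap to the range), and 15 were found. Chance alone gives about 1 in 20. WT CON thalamus replicate 2, the library with the highest GC measure (3.65), accounts for 4 of them, with Hspa8 high at 811 FPKM and Hspa4, Hspa5 and Hspd1 low at 20.1, 60.9 and 32.2. In the hippocampus Hspb6, a small heat shock protein of muscle and vessels, was high in WT CON replicate 1 (7.28) and GFP-BM CON replicate 4 (7.38), the libraries with the highest ependyma markers of their groups (60.1 and 87.2 FPKM), and low in GFP-BM REPOP replicate 3 (3.75). The part of these cells in the Hspb6 values was not tested. Hspa12b was high in GFP-BM CON hippocampus replicate 4 (4.32) and Dnajc3 in WT CON hippocampus replicate 3 (7.75). In the cortex Hsp90aa1 was high in GFP-BM CON replicate 3 (217), Hspb1 low in GFP-BM CON replicate 2 (2.81), Hspb3 high in GFP-BM REPOP replicate 2 (2.79) and Dnajc13 low in GFP-BM REPOP replicate 1 (9.94). In GFP-BM REPOP thalamus Dnajb1 was high in replicate 3 (22.9) and Hsp90ab1 in replicate 4 (604).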

How the results depend on the processing

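Counts of members called between treatments were 0 under all alternatives but 2 kinds. With all 9 groups in 1 fit they were 12 in the hippocampus and 3 in the thalamus for GFP-BM CON against WT CON, 1 and 5 for GFP-BM REPOP against WT CON, and 1, Dnajc9, in the hippocampus of GFP-BM REPOP against GFP-BM CON, where 19.4%, 9.16%, 2.79%, 13.3% and 4.52% of all genes passed. Leaving out 1 library gave 0 to 6 for GFP-BM CON against WT CON in the hippocampus (6 without WT CON replicate 3 and 3 without GFP-BM CON replicate 4) and 0 to 1 in the thalamus (without WT CON replicate 1), and for GFP-BM REPOP against WT CON 0 to 1 in the cortex (without GFP-BM REPOP replicate 1) and 0 to 3 in the thalamus (without WT CON replicate 1). In the same order 6.55%, 5.4%, 8.01%, 1.65% and 12.2% of all genes passed without these libraries. The cause was not tested. Replicate numbers did not pair libraries across treatments, since the correlation of their deviations ran from -0.43 to 0.49 with 5 of 32 pairs over 0.1, and with the replicate block 0 members were called in the treatment comparisons.

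Between WT CON regions, 24, 16 and 9 members became 31, 24 and 13 with the GC content and length correction, 22 to 25, 15 to 19 and 9 with the other settings, and 13 to 35, 8 to 28 and 4 to 29 with 1 library left out. Hippocampus against cortex gave 13 without WT CON cortex replicate 1, 14 without cortex replicate 3 and 13 without hippocampus replicate 1. Thalamus against cortex gave 10, 10 and 8 without WT CON cortex replicates 1, 2 and 3, 28 without thalamus replicate 1 and 9 without thalamus replicate 2. Thalamus against hippocampus gave 5 without WT CON hippocampus replicate 4, and 29 and 4 without thalamus replicates 2 and 4. With the correction 4 called differences reversed: Dnaja1 (0.61) and Hspa4l (0.21) in hippocampus against cortex, and Dnaja1 (0.19) and Dnaja2 (0.17) in thalamus against cortex. Of 10036 alternative values for single members, 9669 stayed on their side of the threshold, 170 fell short of it and 45 passed it. Another 148 stayed uncalled but moved by more than 1 SD, and 4 changed sign where a fit called the difference. Sign was not compared where neither fit called. Uncalled sign changes, such as those of Hspa4l and Dnaja1 between treatments, are therefore not among the 4. Depth limits Dnajb13, Hspb2 and Hspb3, with 1, 4 and 2 reads in their lowest library.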

Other observations

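Between WT CON regions, the chaperone partners differed by list. The TRiC chaperonin, which folds actin and tubulin, had 3 of 8 subunits higher in the hippocampus and 4 of 8 in the thalamus, with none lower. The unfolded protein response list had 6 of 16 higher in the hippocampus and none lower, and 3 higher and 1 lower in the thalamus. Heat shock factors and cochaperones had 6 higher and 4 lower of 22 in the hippocampus, Hsf1 among those higher (0.38 ± 0.11, adjusted p = 0.00843), and 4 higher and 2 lower in the thalamus. Of the 7 mitochondrial partners 2 were higher in the hippocampus, and 1 was higher and 1 lower in the thalamus. Of the 2 cold-inducible RNA-binding proteins 1 was higher in the hippocampus and none passed in the thalamus. Of the 10 immediate early genes none passed in the hippocampus and all 10 were lower in the thalamus. In these comparisons 15.7% and 13.0% of all genes were called higher and 21.2% and 17.0% lower. These partner calls were not read with the GC content and length correction or with a library left out. The GC measure was 1.75 to 3.39 in WT CON hippocampus, 1.09 to 3.65 in thalamus and 0.753 to 1.24 in cortex, and its part in them was not tested.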
